A study of Mus musculus with 2 samples.

Results

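Sox9, Sox5 and Sox6, which form the chondrogenic Sox trio, and Wwp2 were read in single-cell RNA sequencing libraries of mouse limb tissue. These 4 genes were chosen by symbol out of 32285 genes in each count matrix. They were chosen with results of these data known, after earlier results in which Sox6 and Wwp2 were lower at the later age in connective tissue cells, so the levels in connective tissue and over whole libraries are given below as a description. The groups compared were embryos at E12.5 and at E15.5 (E for embryonic day), each with a single library. Both came from wild-type C57Bl/6 embryos, from tissue labelled limb skeletal muscles that was taken apart mechanically and with trypsin, and both were made with a 10x Genomics 3′ droplet kit. The number of embryos in each library is not in the labels, and age and library cannot be told apart. There were no replicates, no p-value was computed, and every interval below is a 95% interval that covers counting error only.

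Sox9 is a transcription factor needed for cartilage to form, and it acts on enhancers of cartilage matrix genes. Sox5 and Sox6 are a closely related pair of SoxD factors that lack a transactivation domain of their own and work beside Sox9 on the same matrix genes. Wwp2 is a HECT-domain ubiquitin ligase of the NEDD4 type, known as a Sox9-dependent gene in cartilage, and its gene hosts the cartilage microRNA miR-140. Outside cartilage, Sox6 is known as a repressor of slow-fibre genes in foetal muscle, and Sox5 and Sox9 have roles in neural crest derivatives.

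In GENCODE vM21 on build GRCm38, Sox9 is a compact gene of 5.5 kb on the plus strand (chr11:112782224-112787760). Sox5 (chr6:143828425-144781977) and Sox6 (chr7:115470872-116038796) are on the minus strand and span 953.6 kb and 567.9 kb. Antisense genes are annotated within both, and reads of a gene and its antisense partner can be separated only if counting used strand, a setting not given in the sources used here. Wwp2 (chr8:107436365-107558595, plus strand) spans 122.2 kb and has 11 annotated transcripts, of which 4 are protein-coding. Mir140 (chr8:107551244-107551313) lies in intron 16 of the longest protein-coding transcript and in intron 7 of a shorter protein-coding transcript that starts inside the gene at position 107545012. Both transcripts run to the 3′ part of the gene, so 3′ counts of Wwp2 were not assigned to either one. The mature miR-140-3p is shown because it shares its host gene with the Wwp2 counts, with its seed (bases 2 to 8) in capitals, from RefSeq on GRCm38.p6 (chr8:107551288-107551308, plus strand). No count of the microRNA itself was used here.
mmu-miR-140-3p: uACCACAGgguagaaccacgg

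Promoter windows of the members were read because all 4 genes were lower together at the later age. In the 250 bases before each RefSeq start, both strands were searched for the SOX-type letters ACAATG and ACAAAG, whose matches cannot overlap each other. Of 32851 windows of that length, 25.2% held at least 1 match. Sox6 has 6 windows, of which 5 held a match, and the only Sox5 window, which lies inside the gene and not at its annotated 5′ end, held 1. The Wwp2 window held none, as did those of the cartilage genes Matn1 and Acan, and these letters being absent from a window says nothing about the factors. Sox9 has no entry in the table. The outermost Sox6 window (chr7:116038745-116038994, minus strand) and the Wwp2 window (chr8:107436120-107436369, plus strand) are printed from RefSeq, GRCm38.p6, with any match in capitals. The match in Sox6 begins at base -113 from the start.
Sox6: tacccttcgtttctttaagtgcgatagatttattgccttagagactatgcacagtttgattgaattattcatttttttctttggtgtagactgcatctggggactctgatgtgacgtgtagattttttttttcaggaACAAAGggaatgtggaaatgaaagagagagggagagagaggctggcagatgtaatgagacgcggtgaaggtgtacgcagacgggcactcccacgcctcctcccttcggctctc
Wwp2: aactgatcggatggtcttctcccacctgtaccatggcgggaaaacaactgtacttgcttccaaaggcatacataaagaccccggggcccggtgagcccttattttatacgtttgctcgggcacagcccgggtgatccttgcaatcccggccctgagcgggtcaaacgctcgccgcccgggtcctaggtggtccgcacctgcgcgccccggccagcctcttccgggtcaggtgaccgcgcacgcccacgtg

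Cartilage was set by marker genes that are not members. A barcode with at least 1 UMI of Matn1 (matrilin 1) and at least 1 UMI of Acan (aggrecan) counted as cartilage, a barcode with neither as outside, and a barcode with only one of them as a tier of its own. A UMI marks a captured RNA molecule. After filtering, cartilage held 737 of 11001 younger barcodes (6.70%) and 58 of 3917 older ones (1.48%). Their median depth was 2810 and 7858.5 UMIs, and the outside barcodes had 2278 and 9453.5. Col2a1, the main cartilage collagen, was at 4823 CPM (UMIs summed over the barcodes and scaled to a fixed library total) and 9101 CPM in these cartilage barcodes, against 527 and 24.8 CPM outside. All 58 cartilage barcodes at E15.5 fell in clusters named chondrocyte-like from their markers. At E12.5, 613 of 737 did, while 68 more lay in connective-tissue-like clusters and 53 in unnamed ones. The outside barcodes were not free of chondrocyte-like ones. These made up 178 of the 8859 outside barcodes in the younger library. In the older library they made up 290 of 3560. Leaving them out lowered the older outside count of Sox6 from 330 to 244 UMIs. At E12.5, doublet removal took 18.5% of cartilage barcodes and 8.93% of outside barcodes. The libraries shared 17 cell barcodes as deposited and 11 after filtering.

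All 4 genes were lower at E15.5 both inside and outside cartilage, and the difference was several times larger outside. The cartilage level of Sox6 was 387 CPM (361 to 413) in the younger library, from 862 UMIs. In the older library it was 161 CPM (128 to 199), from 82 UMIs. Its log2 ratio of E15.5 over E12.5 was -1.27 (-1.61 to -0.94). Outside, Sox6 levels were 106 CPM (102 to 111) and 8.84 CPM (7.91 to 9.85), which gave -3.59 (-3.76 to -3.42) as the log2 ratio. The lower level of Sox6 at the later age was thus seen inside cartilage and was not confined to barcodes without the markers.

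Wwp2 in cartilage had a level of 1453 CPM (1404 to 1504) in the younger library and 965 CPM (882 to 1054) in the older one, with -0.59 (-0.73 to -0.45) as the log2 ratio. Outside, its levels were 263 CPM (256 to 270) and then 18.6 CPM (17.3 to 20.1), with a log2 ratio of -3.82 (-3.93 to -3.70). So Wwp2 was lower by 1.51-fold inside and by 14.1-fold outside. Set against the median gene, which itself had a log2 ratio of -0.35 in cartilage and -0.32 outside, the inside ratio was -0.24 (-0.38 to -0.10) for Wwp2 and -0.92 (-1.26 to -0.59) for Sox6.

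Sox9 levels in cartilage were 1747 CPM (1692 to 1803) and 1214 CPM (1120 to 1313), with -0.53 (-0.65 to -0.40) as the log2 ratio. Outside they were 571 and 66.0 CPM, with -3.11 (-3.18 to -3.05). Sox5, the partner of Sox6, had cartilage levels of 557 CPM (527 to 589) and 284 CPM (240 to 334), with -0.97 (-1.23 to -0.72) as the log2 ratio. Its outside levels were 137 and 10.3 CPM, with -3.72 (-3.88 to -3.57). The log2 ratio outside minus that inside was -2.32 (-2.69 to -1.95) for Sox6, -3.23 (-3.40 to -3.05) for Wwp2, -2.59 (-2.72 to -2.45) for Sox9 and -2.75 (-3.04 to -2.46) for Sox5. The outside barcodes overlap those on which the genes were chosen, so these differences are a description.

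Read against all genes, the inside and outside falls stood in different places. In cartilage, 21.8% of 8747 genes with a mean of at least 10 CPM were lower at E15.5 by 2-fold or more, and 1 of the 4 members (Sox6) was among them. Relative to the median gene, 0 of the 4 were. Ranked from the lowest ratio, Sox6 stood 1228th, Sox5 1986th, Wwp2 3434th and Sox9 3700th of 8747. Outside, 15.1% of 9169 genes were lower by 2-fold or more, and all 4 members were. Their ranks were 15th for Wwp2, 16th for Sox5, 20th for Sox6 and 40th for Sox9 of 9169. Connective-tissue-like barcodes made up 5977 of the 8859 outside barcodes at E12.5 and 1632 of the 3560 at E15.5. The genes were chosen on connective tissue, so nothing further is read from those ranks. Genomic span moved with the ratio over all genes: in cartilage the median log2 ratio was 0.13 for genes under 10 kb and -0.62 for the 79 genes of 500 kb and over, with a lower quartile of -1.28 there. The cartilage ratio of Sox6 was close to that quartile, and Sox5 lay between it and the median. Wwp2, at -0.59, was close to the median of -0.63 for genes of 100 to 500 kb, and Sox9, at -0.53, lay below the lower quartile of -0.45 for genes under 10 kb. Outside, the 100 genes of that length had a median of -0.78 and a lower quartile of -1.40, well above both SoxD values. The part of span in these ratios was not tested.

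**Figure D1:**
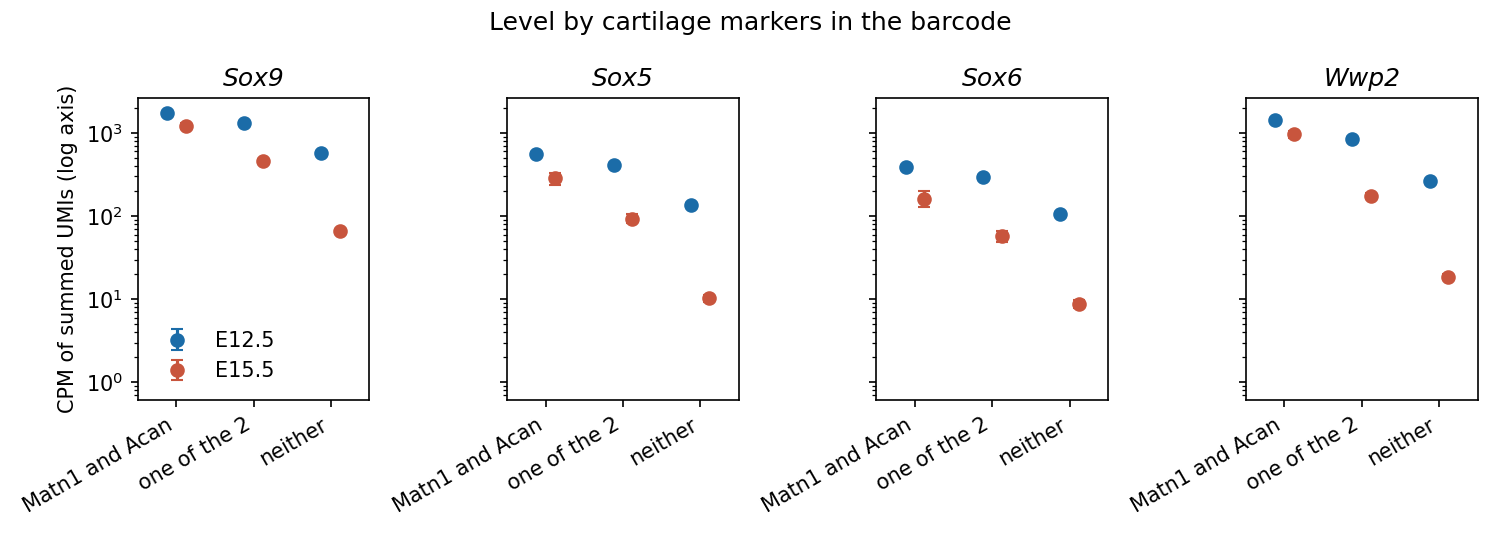
Level of each gene (CPM of summed UMIs, log axis) in barcodes with Matn1 and Acan, with one of them or with neither, at E12.5 (blue) and E15.5 (red); bars are 95% Poisson intervals, often smaller than the point. The 2 ages lie close together in barcodes with both markers and furthest apart in barcodes with neither, where Wwp2 was at 263 and 18.6 CPM.

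Each gene was therefore more concentrated in cartilage at the later age. Cartilage over outside was 3.63-fold for Sox6 in the younger library and 18.2-fold in the older one. For Wwp2 it was 5.53-fold and 51.8-fold, for Sox9 3.06-fold and 18.4-fold, and for Sox5 4.08-fold and 27.5-fold. Barcodes with only one marker lay in between. There Sox6 was at 297 and 57.0 CPM (log2 ratio -2.38) and Wwp2 at 852 and 176 CPM (log2 ratio -2.27).

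Single barcodes inside cartilage overlapped widely between the ages. The median barcode held 3.25 Sox6 UMIs per 10000 at E12.5 (quartiles 0 and 6.11, highest 25.2) and 1.39 at E15.5 (quartiles 0 and 2.78, highest 7.01). Wwp2 had a median of 13.7 per 10000 (quartiles 7.85 and 19.9) and then of 9.61 (quartiles 6.49 and 14.3). Sox9 ranged from 0 to 79.5 per 10000 around a median of 16.1 at E12.5, and from 0 to 64.4 around 10.7 at E15.5.

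Each barcode was thinned to 2000 UMIs to even out the depth at which a member is detected. The markers that set cartilage and outside were still read before thinning, at unlike depth. Sox6 was then detected in 51.6% (47.5 to 55.7) of 599 younger cartilage barcodes. Among the 58 older ones the share was 27.6% (16.7 to 40.9). Thinning left out 138 shallower barcodes of the younger cartilage and 0 of the older. Unthinned, these shares were 61.2% and 65.5%, an order that the CPM values do not share. Wwp2 was detected in 90.3% and 82.8% of thinned cartilage barcodes, with overlapping intervals (87.7 to 92.6 and 70.6 to 91.4). Outside cartilage the thinned shares of Sox6 were 14.5% and then 2.10%, and those of Wwp2 27.6% and 3.98% (unthinned 18.5% and 6.35%, and 33.5% and 15.3%). In endothelial-like barcodes, a class that should lack the trio and had median depths of 3912 and 11107 UMIs, thinned Sox6 was seen in 1.69% and 2.29% and thinned Wwp2 in 11.9% and 2.29%. The older Sox6 share over all outside barcodes lay near the endothelial one but was uneven over classes, with 0.362% in connective-tissue-like, 4.10% in muscle-lineage-like and 6.16% in tenocyte-like barcodes.

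Joint detection of the trio in a cartilage barcode was lower in the older library, as was detection of each gene on its own. Thinned shares in cartilage were 91.3% and then 77.6% for Sox9, and 62.6% and 32.8% for Sox5. Joint detection beyond what the single shares give was not tested. Of thinned cartilage barcodes with Sox9, 81.0% (77.4 to 84.2) also had Sox5 or Sox6 in the younger library, and 51.1% (35.8 to 66.3) in the older. Without Sox9 these shares were 67.3% (52.9 to 79.7) of 52 barcodes and 53.8% (25.1 to 80.8) of 13. All 4 members were present together in 184 of 599 (30.7%, 27.0 to 34.6) and in 5 of 58 (8.62%, 2.86 to 19.0). Outside cartilage this held for 210 of 5447 younger barcodes (3.86%). Of 3289 older ones 0 did, a count that allows a share of up to 0.0912%.

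Most transcripts of these genes were not in marker-defined cartilage barcodes at either age. Of Sox6 UMIs, 20.1% and then 14.3% lay in cartilage, 55.5% and 57.6% lay in barcodes with neither marker, and the rest in barcodes with one. Wwp2 was more concentrated, with 26.7% and 29.2% in cartilage and 48.5% and 41.3% outside. By cluster this differed at E15.5, where the chondrocyte-like clusters held most UMIs of each gene. They had 317 of 573 for Sox6, 1090 of 1687 for Wwp2, 2674 of 4386 for Sox9 and 504 of 794 for Sox5. At E12.5 they held 1148 of 4298 Sox6 UMIs and 4342 of 12152 Wwp2 UMIs. Over all kept barcodes Sox6 was at 152 and 14.1 CPM (log2 ratio -3.44) and Wwp2 at 431 and 41.5 CPM (log2 ratio -3.38). Putting E15.5 levels into the E12.5 mix of the 3 tiers gave a log2 ratio of -2.50 for Sox6 and -1.93 for Wwp2. Putting E12.5 levels into the E15.5 mix gave -0.31 and -0.44. Both descriptions leave out changes of cell make-up within a tier.

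Clusters showed where the outside transcripts lay. At E12.5 the chondrocyte-like clusters 4 and 17, the latter with Ihh and Fgfr3 among its leading genes, held Sox9 at 1790 and 1723 CPM, Sox6 at 384 and 361 CPM and Wwp2 at 1392 and 1540 CPM. Yet 2 unnamed clusters led by Gdf5 and Barx1, genes known from the joint interzone and its neighbourhood, were as high in the SoxD pair. In these clusters 3 and 19, Sox5 was at 580 and 592 CPM and Sox6 at 381 and 367 CPM. Their intervals for Sox6 (355 to 409 and 318 to 421) overlapped those of the chondrocyte-like clusters (359 to 411 and 320 to 405). Wwp2 set these clusters apart, at 687 and 837 CPM. Cluster 1, with Tbx5 and the tendon gene Thbs4 among its leading genes, held Sox9 at 1205 CPM and Sox6 at 234 CPM. Connective-tissue-like cluster 12, with Isl1, Irx3 and Bmp2, held Sox9 at 1437 CPM and Sox6 at 289 CPM. Sox9 thus stood at 1205 CPM or more in clusters 1, 3, 9, 12 and 19, none of them chondrocyte-like.

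At E15.5 no cluster outside the chondrocyte-like ones held Sox9 above 133 CPM. Cluster 20, whose 46 barcodes are led by Matn1 and Col2a1, held Sox9 at 1241 CPM, Sox5 at 330, Sox6 at 188 and Wwp2 at 1065 CPM. A far larger chondrocyte-like cluster of 407 barcodes, number 3, was led by Mia, Sox9, Mecom, Matn4 and Dkk3. There Sox9 was at 598, Sox6 at 66.7 and Wwp2 at 171 CPM, and the dividing cluster 12 was similar at 460, 49.7 and 164 CPM. Cluster 3 had 34 Matn1 UMIs and cluster 12 had 9, against 723 in cluster 20, and they hold 407 and 97 of the 550 chondrocyte-like barcodes. Of the listed chondrocyte markers, only Col9a3 was among the 10 leading genes of cluster 3, so its name is weakly held. At resolution 2.0 the older chondrocyte-like class was 190 barcodes, with Sox6 at 102 CPM in place of 74.0 and Wwp2 at 472 CPM in place of 254. A joint-like cluster of 182 barcodes led by Scrg1, Gdf5 and Dkk3, and an osteoblast-like one of 77 led by Runx2, were then apart from it. Taking the chondrocyte-like clusters as cartilage in place of the markers therefore moved the inside log2 ratio to -2.35 (-2.54 to -2.17) for Sox6 and -2.49 (-2.59 to -2.40) for Wwp2.

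**Figure D2:**
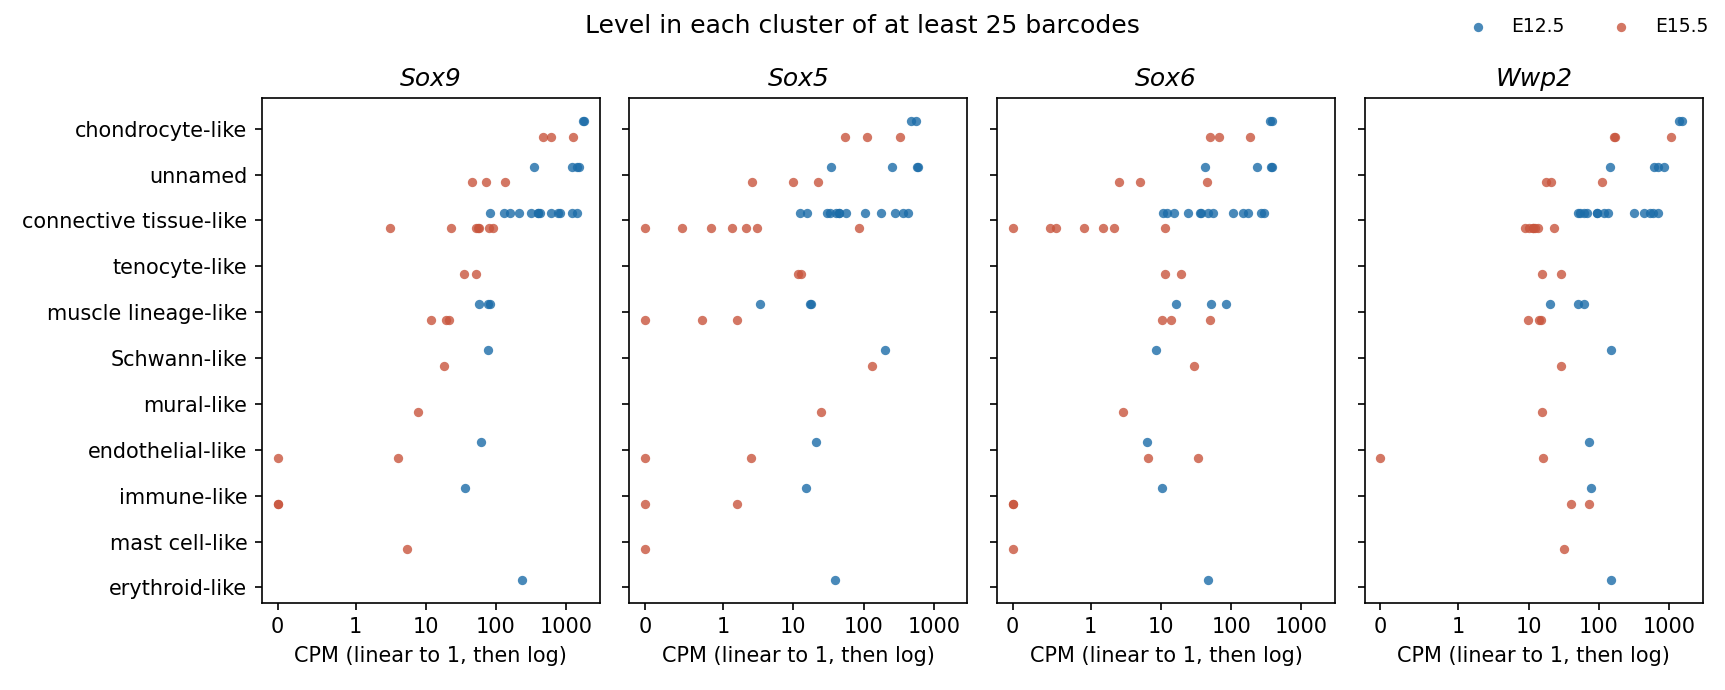
Level of each gene (CPM, linear up to 1 and logarithmic above) in every cluster of at least 25 barcodes, by class of the cluster, at E12.5 (blue) and E15.5 (red); each point is 1 cluster. At E12.5 unnamed clusters reach 381 CPM of Sox6, level with the chondrocyte-like clusters, and at E15.5 the highest unnamed cluster is at 44.6 CPM.

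In connective-tissue-like clusters, the contrast behind the choice of the genes, Sox6 levels were 96.0 CPM and then 1.54 CPM (28 UMIs in 1663 barcodes), with -5.96 (-6.55 to -5.42) as the log2 ratio. Sox5 was at 121 and 3.31 CPM (log2 ratio -5.20), Wwp2 at 269 and 11.2 CPM (-4.58) and Sox9 at 560 and 59.3 CPM (-3.24). All 4 were thus lower by 2-fold or more, as were 18.0% of all 9004 genes in that class. The older levels depended on how finely barcodes were clustered: at resolutions 0.5 and 2.0, in place of 1.0, Sox6 was at 4.31 and 2.51 CPM, Sox5 at 4.25 and 5.83 CPM, Wwp2 at 19.7 and 13.5 CPM and Sox9 at 81.5 and 76.0 CPM. Classes that should lack cartilage matrix were read for free RNA, and they differed from each other. In endothelial-like clusters Col2a1 was at 72.1 and 1.93 CPM, Sox9 at 60.9 and 3.86 CPM, Wwp2 at 73.7 and 15.4 CPM and Sox6 at 6.41 and 7.24 CPM. The erythroid-like class, with 43 younger and 16 older barcodes, had Col2a1 at 399 and 15.3 CPM, Sox9 at 235 (158 to 335) and 40.7 CPM and Wwp2 at 149 and 15.3 CPM. Its Sox6 was at 47.0 CPM (17.2 to 102) and 15.3 CPM, from 6 and 3 UMIs. Whether those Sox6 UMIs were free RNA or came from the erythroid-like cells themselves was not tested. The part of free RNA in the E12.5 levels outside cartilage was not tested.

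The members did not share one order over the other cell classes. Muscle-lineage-like clusters held Sox6 at 33.3 CPM (26.5 to 41.4) in the younger library. In the older one it was at 19.7 CPM (16.3 to 23.5), with -0.76 (-1.18 to -0.34) as the log2 ratio. Their Sox9 went from 75.6 to 16.4 CPM (-2.20) and Wwp2 from 49.2 to 12.8 CPM (-1.94). Of 8170 genes, 15.7% were lower in this class by 2-fold or more and 2.91% higher, and Sox6 was in neither set. Within muscle, Sox6 followed the clusters' leading genes. At E12.5 it was at 16.2 CPM (10.5 to 23.9) in the Pax7 cluster, 52.0 CPM (35.6 to 73.4) in the Myog cluster and 84.4 CPM (54.6 to 125) in the cluster led by Myh3. At E15.5 the Pax7 clusters held 13.7 and 10.5 CPM, and the cluster with Myh3 and Ttn 49.4 CPM (38.0 to 63.3). Sox9 in these 3 E15.5 clusters was at 19.4, 11.9 and 21.2 CPM, and all 3 intervals overlapped one another. Of 9 listed slow-fibre genes, 6 passed the level filter in the muscle class, and 3 (Myh7, Tnnc1 and Tnnt1) were lower at E15.5 by 2-fold or more. Counted from the median gene, 1 was. Myh7, the slow myosin heavy chain, was at 69.1 and 3.09 CPM, and Tnni1 was at 290 and 318 CPM.

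Sox5 had a second site in Schwann-like cells, which derive from the neural crest. Its level there was 199 CPM (126 to 298) in the younger library, from 23 UMIs in 28 barcodes. The 93 older barcodes had 130 CPM (110 to 154). Their Sox9 was at 77.8 and then 18.0 CPM and Sox6 at 8.64 and 29.3 CPM. The E15.5 cluster also had the melanocyte genes Dct and Pmel among its leading genes. A small E15.5 connective-tissue-like cluster of 45 barcodes, number 21, led by Spink6, Anxa8 and Tppp3, held Sox5 at 84.7 CPM (60.5 to 115) and Sox6 at 2.12 CPM. Wwp2 in immune-like cells was at 76.5 CPM (42.8 to 126) and 70.5 CPM (52.0 to 93.5), with overlapping intervals. Sox9 there had 7 UMIs in the younger library and 0 in the older, a count that allows up to 4.41 CPM.

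**Figure D3:**
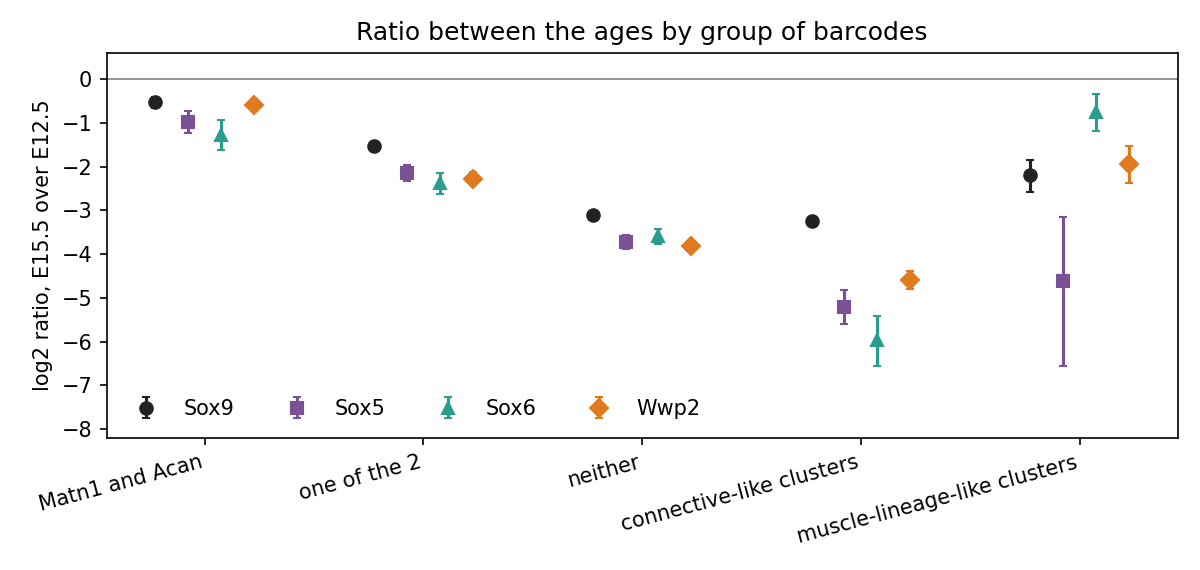
Log2 ratio of E15.5 over E12.5 for each gene by group of barcodes, with 95% intervals for counting error; 0 is no difference. Ratios step down from barcodes with Matn1 and Acan (Sox6 at -1.27) to those with neither (-3.59) and to connective-tissue-like clusters (-5.96), and Sox6 in muscle-lineage-like clusters is at -0.76.

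The matrix genes that the trio is known to act on did not move with it inside marker-defined cartilage. Those barcodes were picked by Matn1 and Acan, matrix genes themselves, at unlike depth. The ratios of matrix genes are thus not independent of that choice. Of 20 listed matrix genes, all past the level filter, 9 were higher at E15.5 by 2-fold or more (7.72% of all genes were) and 1 lower, with a median log2 ratio of 0.88 beside -0.35 for all genes. Measured from the median gene, 12 were higher and 1 lower. Col2a1 was higher by 0.92 on the log2 scale (0.87 to 0.97), Cnmd (chondromodulin) went from 382 to 1136 CPM and Comp from 35.0 to 382 CPM. Fmod (fibromodulin) went from 8.52 to 143 CPM, and Ucma from 1 to 34 UMIs. Papss2, which makes the sulphate donor for proteoglycans, was the 1 gene lower, at 485 and 182 CPM. Outside cartilage 14 passed the filter, of which 11 were lower and 1 higher (Fmod; 6.55% of all genes were higher there). Their median log2 ratio was -2.06, and relative to the median gene 9 were lower. In the chondrocyte-like clusters Col2a1 was at 4453 and 1704 CPM, the other way round from the marker-defined cartilage.

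Regulators of chondrocyte stage were more often lower than higher in cartilage at E15.5. In cartilage 17 of the 20 listed passed the filter, 9 were lower by 2-fold or more and 1 was higher, with a median of -1.02, beside 21.8% lower and 7.72% higher over all genes. Against that median gene, 7 were lower. Runx2, a driver of hypertrophy and bone formation, was at 279 and 52.9 CPM. Ihh, a signal of prehypertrophic chondrocytes, was at 54.7 and 7.83 CPM, from 122 and 4 UMIs. Sp7, a bone regulator, had 53 UMIs and then 0. That is 4.05-fold lower if the 0 is set to a floor of 3 counts, and the interval of its log2 ratio had an upper limit of -1.67. Pthlh, the ligand that holds chondrocytes before hypertrophy, was the 1 higher, at 7.17 and 25.5 CPM from 16 and 13 UMIs. Because stage genes moved, cartilage was split by them. Barcodes without Ihh, Pth1r and Col10a1 held Sox6 at 406 and 160 CPM and Wwp2 at 1481 and 887 CPM, and those with any of these held Sox6 at 351 and 162 CPM and Wwp2 at 1403 and 1109 CPM. The split left 38 and 20 barcodes at E15.5. Any UMI of a stage gene counted, at unlike depth in the libraries. Over all cartilage barcodes Pth1r had 195 and 29 UMIs and Col10a1 had 8 and 0, beside the 122 and 4 of Ihh. The groups need not hold the same stage at both ages. Without the stage genes, the log2 ratio was -1.34 for Sox6, -0.74 for Wwp2 and -0.78 (-0.94 to -0.62) for Sox9. With any of them it was -1.12 for Sox6 and -0.34 (-0.56 to -0.12) for Wwp2, beside -0.35 for the median gene over all cartilage barcodes. In the barcodes with any stage gene, Sox9 was at 1598 and 1488 CPM. Its ratio of -0.10 (-0.30 to 0.09) had an interval that reached 0.

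Among relatives, 7 of 19 SOX genes passed the filter in cartilage and 4 were lower by 2-fold or more, namely Sox4, Sox6, Sox11 and Sox12 (3 relative to the median gene), beside 21.8% of all genes. Sox11, known from immature mesenchyme, was at 744 and 123 CPM. Sox8, the SoxE relative of Sox9, was at 33.2 and 31.3 CPM. Of 8 NEDD4-type ligases related to Wwp2, 7 passed in cartilage and 4 were lower (Nedd4l, Wwp1, Smurf2 and Hecw2), with a median of -1.15, below the -0.59 of Wwp2. Relative to the median gene 3 were lower there. Outside cartilage 7 passed and 1 was lower (Nedd4l, at -1.05), a share near the 15.1% of all genes, with a median of -0.82, far above the -3.82 of Wwp2. Set against the median gene, 0 were lower. Wwp1, a near relative of Wwp2, was at 59.6 and 53.3 CPM outside.

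**Figure D4:**
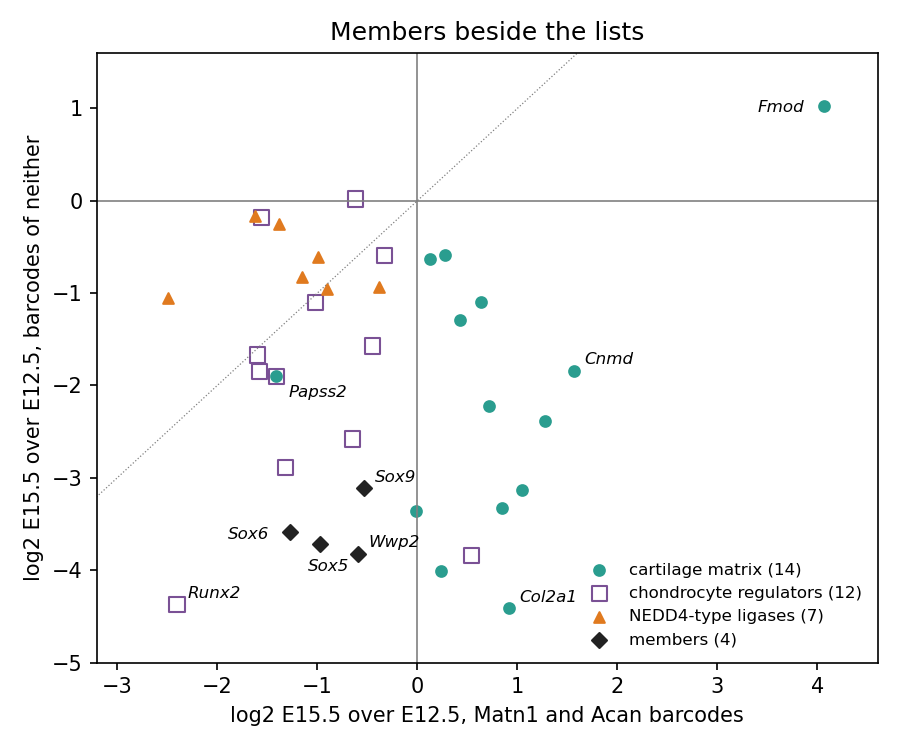
Log2 ratio of E15.5 over E12.5 in cartilage barcodes (x) against that in barcodes with neither marker (y), for listed genes past the level filter in both; open squares are regulators, and the dotted line marks equal ratios. Matrix genes lie mostly to the right of 0 and below it (Col2a1 at 0.92 and -4.41), the NEDD4-type ligases lie between -1.05 and -0.16 on y, and the 4 members lie lower left.

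The genes most like each member over clusters were ranked by the lower of the within-library Pearson correlations of log2(CPM + 10), over 22 younger and 19 older clusters and among 11307 genes. Clusters of a library share their depth and their free RNA, so these values describe and test nothing. For Sox9 the 5 nearest were Unc5c, Col9a2, Tgfbi, Mia and Fgfrl1, for Sox5 they were Col9a3, Cnmd, Rflna, Matn4 and Col2a1, and for Wwp2 they were Acan, Col2a1, Matn1, Unc5c and Matn4. Sox6 stood apart with Rtkn, Aopep, Msi2, Sema6a and Matn1, at correlations of 0.73 to 0.86. Among the members themselves, correlations were 0.94 to 0.97 in the younger library and 0.44 to 0.73 in the older, lowest between Sox9 and Sox6.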

How the data were processed

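Each deposited matrix gives unnormalized UMI counts by gene and barcode, which the authors made with Cell Ranger 4.0.0 per the submitters' processing notes, which also name Seurat 4.3.0 and build mm10. Cell calling settings are not given in the sources used here. The genes and lists were chosen with earlier results of these data known. Barcodes with at least 500 genes and under 10% mitochondrial UMIs were kept, and the highest doublet scores (2 simulated doublets per barcode) were removed at 0.8% per 1000 deposited barcodes. This left 11001 of 12941 barcodes at E12.5 (28195475 UMIs, 1270 doublets removed) and 3917 of 5780 at E15.5 (40658421 UMIs, 189 removed). Each library was clustered alone with the Leiden method (resolution 1.0, 2000 variable genes, 30 principal components) with the 4 members, Xist and 4 Y-linked genes left out. A class name needed at least 3 markers raised 2-fold over the other clusters and seen in 10% of barcodes. It also needed a marker among the 10 leading genes of the cluster. Connective tissue was tried only for clusters left without a name, and needed no leading marker. There the markers were raised over muscle, endothelial, blood, Schwann and similar clusters only, so this class is loosely defined. Clusters without a class stayed unnamed, and differences from other studies may come from these rebuilt names. UMIs were summed per group as CPM with exact Poisson intervals, ratios have exact conditional intervals and shares exact Clopper-Pearson intervals. A count of 0 allows 3 counts. Genes named are the members, both cartilage markers, extremes of each list past 10 CPM, genes needed to read a member and the 5 most like each. The ratio and its interval were tested on simulated data. Of 32285 identifiers, 32235 were found in GENCODE vM21. Python 3.11.15, numpy 2.4.6, scipy 1.17.1, scikit-learn 1.9.0, igraph 0.11.9 and leidenalg 0.10.2 were used.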

Additional observations from a re-analysis of the deposited data

Results flagged for a closer look

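For 10 matrix genes past the level filter both inside and outside, there were ratios of opposite sign inside and outside cartilage, with neither interval reaching 0; the difference was not tested beyond counting error, since each age has 1 library. The log2 ratio of E15.5 over E12.5 inside and outside was 0.92 and -4.41 for Col2a1, 0.24 and -4.01 for Col9a1, 0.72 and -2.22 for Col9a2, and 1.05 and -3.13 for Col9a3. It was 0.64 and -1.10 for Col11a1, 0.85 and -3.33 for Col11a2, and 0.28 and -0.59 for Col27a1. For Hapln1 it was 0.43 and -1.29, for Cnmd 1.57 and -1.84, and for Mia 1.28 and -2.38. Relative to the median gene each kept both signs, Col27a1 with the smallest outside value at -0.27. Another 4 listed matrix genes under the filter outside also had opposite signs, at 2.14 and -3.54 for Matn3, 3.45 and -0.85 for Comp, 2.34 and -2.13 for Snorc, and 1.10 and -4.54 for Chad. None of the 4 members had opposite signs inside and outside. Inside and outside were set by Matn1 and Acan, matrix genes themselves, at unlike depth in the libraries, so the ratios of matrix genes are not independent of that split. In the chondrocyte-like clusters Col2a1 was at 4453 and 1704 CPM, a log2 ratio of -1.39, opposite in sign to the inside value.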

How the results depend on the processing

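In 11 alternatives each, the log2 ratios of Sox6 and Wwp2 inside and outside cartilage stayed below 0, from -2.89 to -0.92 and from -4.15 to -3.06 for Sox6, and from -2.49 to -0.24 and from -4.24 to -3.23 for Wwp2. Of these 44 values 24 moved by less than the counting interval and 20 by more. With chondrocyte-like clusters as cartilage, Sox6 was -2.35 inside and -4.15 outside, and Wwp2 -2.49 and -4.24. With either marker as cartilage, the inside values were -2.19 and -1.87. Relative to the median gene, Sox6 was -0.92 and -3.26 and Wwp2 -0.24 and -3.49, by construction. In male barcodes alone, Sox6 was -2.89 (3 UMIs in 8 barcodes at E15.5) and -3.06, and Wwp2 -0.80 and -3.23; in female barcodes alone, the outside values were -3.81 and -4.09. With the markers read after thinning, outside values were -3.14 and -3.37. Requiring markers and cluster together, an alternative added after seeing the data, gave -3.88 and -3.99 outside, and the look at genomic span was also added then. Clustered at resolutions 0.5 and 2.0, Sox6 in the connective-tissue-like class at E15.5 was at 4.31 and 2.51 CPM, against 1.54, and Wwp2 in the chondrocyte-like class was at 272 and 472 CPM, against 254. Other than by construction, the cause was not tested. Without the level filter, SOX genes lower by 2-fold in cartilage were 10 of 13, against 4 of 7. Those 10 include Sox1, Sox3 and Sox30, each with 1 younger UMI and 0 older, and Sox7, with 2 and 0. Upper limits of their log2 ratios were 7.41 for the first 3 and 4.54 for Sox7, so these genes cannot show a lower level. With zeros set to their limit, the unfiltered list median was -0.97 in place of -1.61. No paired analysis was possible because each age has 1 library, and no replicate could be left out. The 58 cartilage barcodes at E15.5 limit what can be seen inside cartilage.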
